A study of Mus musculus with 11 samples.

Results

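The Meis, Pbx and Prep cofactors are TALE homeodomain transcription factors, and 8 of their genes were followed here among the 38197 genes of the deposited count table: Meis1, Meis2, Meis3, Pbx2, Pbx3, Pbx4, Pknox1 and Pknox2. Pknox1 and Pknox2 encode the Prep proteins. The genes were taken by symbol, as a protein family, and not by a cut on a measured value, although earlier results of these data were known. All 8 had counts in every library and passed the filter on low counts.

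The study followed E14 mouse embryonic stem cells, a wild type line of strain 129, grown as a monolayer while they were driven toward ventral hindbrain neural types. The inducing agents were RA (retinoic acid) and SAG, a small molecule agonist of Smoothened that switches on hedgehog signalling, and the labels give their use as days 0 to 3 of differentiation. Polyadenylated RNA was sequenced from 3 libraries of Prominin-1 sorted neural progenitors, called day 3.5 sorted here, and from 2 unsorted libraries at each of days 3, 2, 1 and 0. The labels name every library wild type, and nothing in them says that replicates came from separate cultures, so p-values measure only the spread between these libraries. A single cell line was used throughout, and no untreated culture of the same age was analysed here, so that time in culture and exposure to RA and SAG cannot be told apart. One label of the sorted libraries gives 3.5 days and another gives 3 days, and their library names carry another prefix than the unsorted ones. Sorting, time and that prefix therefore cannot be told apart in any comparison with day 3.

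Hox proteins bind DNA weakly and with little specificity alone, and gain both in complexes with TALE partners. Pbx proteins contact Hox proteins of many paralog groups directly, while Meis and Prep proteins bind the amino-terminal part of Pbx, hold it in the nucleus and add a DNA contact of their own. In the vertebrate hindbrain, complexes of Hox, Pbx and Meis or Prep act on the enhancers of Hox genes themselves, and Meis genes are known retinoic acid responders in embryonal carcinoma cells.

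The family is defined by a loop of 3 additional residues between the first and second helix of the homeodomain. The coding bases around that loop are shown for both Prep genes, for the closely related Meis1 and Meis2, and for 1 Pbx gene, because the results turn on how near relatives differ in level. The sequences are from the GENCODE M21 transcripts (build GRCm38), 63 coding bases each, 5′ to 3′, with the codons of the proline, tyrosine and proline of the loop in capitals.
Meis1: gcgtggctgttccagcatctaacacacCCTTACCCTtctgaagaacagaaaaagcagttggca
Meis2: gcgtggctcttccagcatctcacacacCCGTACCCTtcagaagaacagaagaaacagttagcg
Pbx2: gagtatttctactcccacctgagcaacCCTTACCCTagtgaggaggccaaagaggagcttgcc
Pknox1: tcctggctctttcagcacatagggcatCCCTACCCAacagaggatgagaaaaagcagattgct
Pknox2: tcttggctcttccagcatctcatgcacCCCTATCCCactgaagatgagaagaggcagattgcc
Meis1 and Meis2 had the same base at 55 of the 63 positions, Pknox1 and Pknox2 at 48, and Meis1 and Pbx2 at 37. Counting all exons of the transcript, the window crosses from exon 8 to exon 9 in Meis1, Meis2 and Pknox2 and from 7 to 8 in Pknox1. It lies within exon 5 in Pbx2. No 2 of the 8 genes shared 20 or more stretches of 50 bases between their transcripts, and smaller numbers were not listed. Between the coding parts compared, the longest shared run was 28 bases, in Meis2 and Meis3. How reads of near relatives were assigned was not tested.

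The 8 genes lie apart from each other on 6 chromosomes of GRCm38. Meis1 is at chr11:18879817-19018985 (minus strand), Meis2 at chr2:115863064-116065839 (minus) and Meis3 at chr7:16175090-16186504 (plus). Pbx2 is at chr17:34591266-34597400 (plus), Pbx3 at chr2:34171457-34373142 (minus) and Pbx4 at chr8:69832491-69872292 (plus). Pknox1 is at chr17:31564734-31607693 (plus) and Pknox2 at chr9:36890982-37147407 (minus). In the GENCODE annotation, exons of Meis1 share 896 bases with the antisense gene Gm16140 and 1029 bases with the same-strand Gm37818, which is 8.51% and 9.77% of its exonic bases. Pbx2 shares 227 exonic bases with Gpsm3 and Pknox1 shares 155 with the antisense AC166172.4. The sources used here do not give the strand setting of the counting, and that share of the Meis1, Pbx2 and Pknox1 counts cannot be assigned with certainty.

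Library totals ran from 13173674 to 17113430 counts in the sorted libraries, against 26136331 to 30384599 in the unsorted ones. The labelled cell types were checked against their markers. The 6 pluripotent cell markers summed to between 1018 and 1092 CPM at day 0, and all 6 were lower at day 1 than at day 0. The 8 neural progenitor markers summed to between 1616 and 1779 CPM in sorted libraries, against 1189 to 1230 CPM at day 3, with Prom1, the sorted antigen, at 281 to 331 CPM against 215 to 263 CPM. Of these 8, edgeR called 1 higher and 0 lower between these groups, against 0.435% and 2.94% of all genes tested. DESeq2 called 2 higher and 0 lower, and 961 of 24770 genes over all in either direction. The median log2 difference over the 8 was 0.192 in edgeR. The 8 neuron markers summed to between 967 and 1534 CPM in sorted libraries, against 987 to 1204 CPM at day 3, although the sorted libraries are labelled progenitors, and 0 of the 8 were called between these groups by edgeR or DESeq2, with 2 at an unadjusted edgeR p under 0.05. The 8 mesoderm markers summed to between 26.97 and 45.6 CPM at day 0, 41.97 and 42.5 CPM at day 1, 24.1 and 24.97 CPM at day 2, and 7.39 and 15.7 CPM at day 3, with Msgn1 at 0 in all 11 libraries and Meox1 called higher at day 1 than at day 0, at 31.6 CPM at day 1. The 6 neural crest markers summed to between 51.0 and 51.6 CPM at day 3, against 30.37 to 30.41 CPM at day 0. Of the 5 tested, 3 were called higher at day 3 than at day 0 and 1 lower, against 27.6% and 26.3% of all genes tested. Ets1 was at 42.5 and 43.8 CPM at day 3, and Sox10 was at 0 at day 3 and in the sorted libraries.

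By day 3 of differentiation, 7 of the 8 cofactor genes were higher than in day 0 stem cells and 1, Pknox1, was lower (edgeR quasi-likelihood test, Benjamini-Hochberg adjusted p below 0.05). Over all 16811 genes tested, 53.9% were called in either direction, 27.6% higher at day 3 than at day 0 and 26.3% lower. The median log2 fold change was 2.54 over the 8 genes and 0.02 over all genes tested. Neuron and neural progenitor markers moved with this comparison. The 8 neuron markers summed to between 987 and 1204 CPM at day 3, against 349 to 379 CPM at day 0, with 7 called higher and 1 lower. They summed to between 118.8 and 126.2 CPM at day 1 and 111.5 and 133.0 CPM at day 2. The 1 lower was Stmn2, which made up most of the day 0 sum, at 293.5 and 324.8 CPM. Stmn2 stood at 67.35 and 60.35 CPM at day 1, 20.2 and 15.4 CPM at day 2, and 108.6 and 104.9 CPM at day 3. The 8 progenitor markers summed to between 1189 and 1230 CPM at day 3, against 231 to 312 CPM at day 0, with 8 called higher. The part of these cell types in the changes of the cofactor genes was not tested. Meis1, Meis3 and Pknox2 had the largest changes of the 8, and the Pbx genes differed among themselves, with Pbx2 and Pbx3 having the highest mean FPKM of the 8 at day 0 and Pbx4 the lowest at days 0, 1 and 2 and in sorted libraries. In the test of any change over days 0 to 3, 7 of the 8 genes passed, against 53.7% of all genes tested, and Pknox1 did not (adjusted p = 0.103). These are bulk libraries, in which fewer cells expressing a gene and less RNA per cell cannot be told apart.

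**Figure D1:**
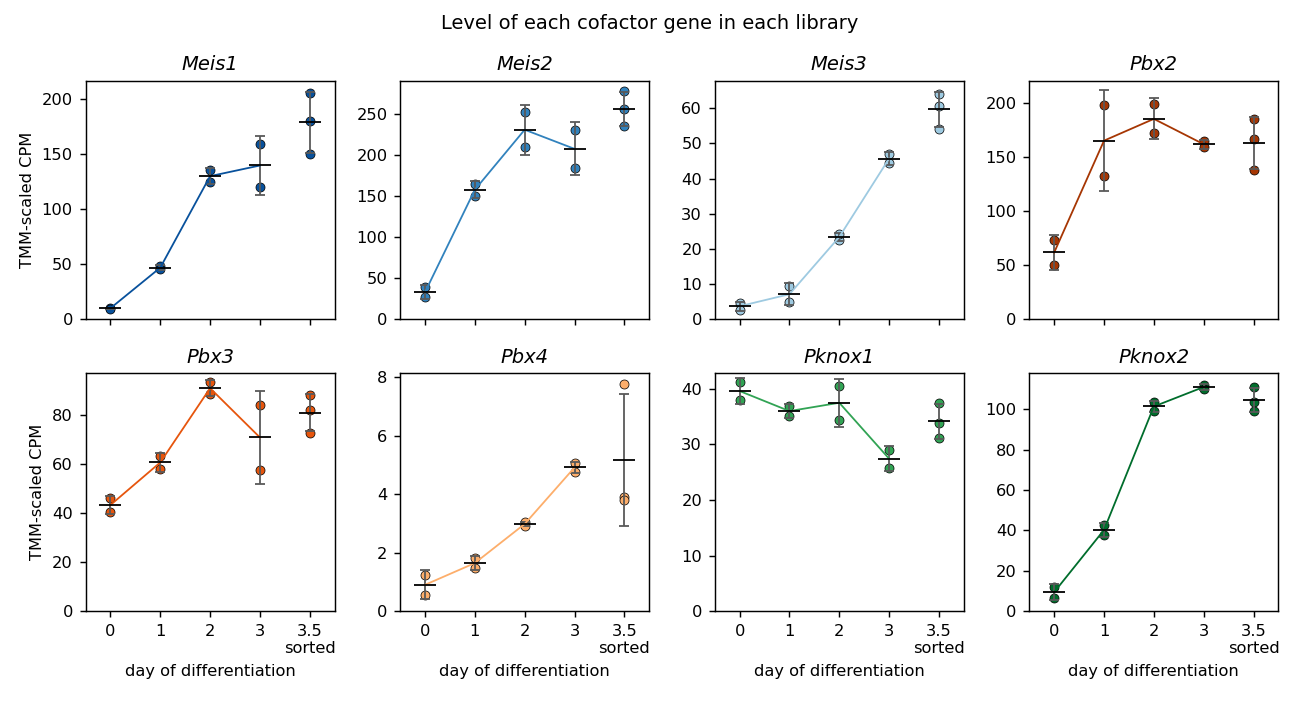
TMM-scaled CPM (counts scaled to library size, linear axis starting at 0) of each of the 8 cofactor genes by day of differentiation; points are libraries, dashes are group means, and bars are SD (n = 2 at days 0 to 3, n = 3 sorted). Meis1, Meis3 and Pknox2 start near the axis and end at 178.7, 59.7 and 104.5 CPM in sorted libraries, while Pknox1 stays between 25.8 and 41.2 CPM.

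Levels are given as CPM scaled by TMM over all 11 libraries. Meis1, a partner of Pbx and of some posterior Hox proteins, stood at 10.01 and 9.47 CPM in the libraries of day 0, 48.1 and 45.2 CPM at day 1, 124.7 and 135.0 CPM at day 2, and 120.4 and 158.7 CPM at day 3. The sorted libraries had 205.7, 180.2 and 150.2 CPM of Meis1. The libraries of days 0, 1 and 2 were separated with no overlap, and those of day 3 overlapped both day 2 and the sorted libraries. Meis1 rose at day 1 relative to day 0, by 2.25 ± 0.18 on the log2 scale (SE, adjusted p = 0.000174 in edgeR), and again at day 2 relative to day 1, by 1.47 ± 0.17 (adjusted p = 0.000753 in edgeR). At day 3 against day 2 the change was 0.11 ± 0.17 and was not called.

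Meis2, which is expressed in many embryonic neural territories, had the highest FPKM of the Meis genes in every library. Its levels were 38.6 and 26.8 CPM at day 0, 165.5 and 150.4 CPM at day 1, 209.7 and 252.9 CPM at day 2, 185.0 and 230.8 CPM at day 3, and 278.1, 256.0 and 235.9 CPM in sorted libraries. Every later library was above both libraries of day 0, and the range of day 2 overlapped those of day 3 and of the sorted libraries. Meis2 rose at day 1 relative to day 0 by 2.27 ± 0.21 on the log2 scale (adjusted p = 0.00034 in edgeR). The log2 difference of 0.54 ± 0.20 at day 2 against day 1 missed the threshold (adjusted p = 0.0918 in edgeR), and was called without the filter on low counts (adjusted p = 0.0447) and with an offset for GC content (adjusted p = 0.0281).

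Meis3, a family member with a role in hindbrain patterning known from Xenopus and zebrafish, had levels of 4.58 and 2.68 CPM at day 0, 4.78 and 9.32 CPM at day 1, 22.6 and 24.1 CPM at day 2, 46.9 and 44.5 CPM at day 3, and 54.2, 60.7 and 64.0 CPM in sorted libraries. No group overlapped the next in this order. The log2 difference at day 1 against day 0 was 0.95 ± 0.35 and not called (adjusted p = 0.0856 in edgeR). It was called without the filter on low counts (adjusted p = 0.0265), by DESeq2 (0.0284), with the sorted libraries in the fit (0.0413), with the GC offset (0.00597) and without day 1 replicate 1 (0.0203). At day 2 against day 1 Meis3 rose by 1.72 ± 0.34 (adjusted p = 0.00863 in edgeR), a call lost on the log2(FPKM + 1) scale without a filter (adjusted p = 0.0757). Whether its course differed in time from those of Meis1 and Meis2 was not tested. Meis3 has the highest GC content of the 8 genes, 59.4%, and its day 2 change was 1.05 with the GC offset (adjusted p = 0.000909 in edgeR). At day 3 against day 2 the log2 difference of 0.98 ± 0.33 missed the threshold over all genes (adjusted p = 0.13), and was called by DESeq2 (adjusted p = 0.0332), without the filter (0.0338) and with the GC offset (0.00418).

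At day 3 against day 0 the net log2 change was 3.83 ± 0.19 for Meis1, 2.66 ± 0.22 for Meis2 and 3.64 ± 0.37 for Meis3, with adjusted p of 2.3e-06, 1.96e-05 and 6.19e-05 in edgeR. All 3 Meis genes were higher in 2 of 2 libraries of day 3 than in either library of day 0. With the GC offset the Meis3 net change was 2.80. The rank of Meis3 among the 8 genes by mean FPKM (fragments scaled to transcript length and library size, so that genes can be compared) went through 5, 7, 6 and 4 over days 0, 1, 2 and 3.

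The 2 Prep genes differed in course. Pknox2 stood at 12.2 and 6.75 CPM at day 0, 42.6 and 37.9 CPM at day 1, 103.4 and 99.3 CPM at day 2, 112.0 and 110.0 CPM at day 3, and 110.9, 103.4 and 99.3 CPM in sorted libraries. The libraries of days 0, 1 and 2 did not overlap, and the sorted libraries overlapped those of days 2 and 3. Pknox2 rose by 2.08 ± 0.25 on the log2 scale at day 1 relative to day 0 (adjusted p = 0.00111 in edgeR) and by 1.32 ± 0.24 at day 2 relative to day 1 (adjusted p = 0.00579 in edgeR). Its net change at day 3 against day 0 was 3.54 ± 0.26 (adjusted p = 1.25e-05 in edgeR).

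Pknox1, which is widely expressed in the early mouse embryo and needed in the epiblast, had 37.9 and 41.2 CPM at day 0, 36.8 and 35.1 CPM at day 1, 34.4 and 40.5 CPM at day 2, 25.8 and 29.0 CPM at day 3, and 37.4, 33.8 and 31.1 CPM in sorted libraries. Both libraries of day 3 were below every other library. The log2 fold change at day 3 against day 0 was -0.54 ± 0.18 (adjusted p = 0.029 in edgeR). That call was lost without the filter on low counts (adjusted p = 0.0678), with the replicate number as a block (0.0511), on the deposited voom values (0.0645), and when day 0 replicate 2 (0.114), day 2 replicate 1 (0.0618), day 2 replicate 2 (0.067), day 3 replicate 1 (0.154) or day 3 replicate 2 (0.0604) was left out.

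Pknox2 was at 27.1 and 25.4 FPKM at day 3, against 2.81 and 1.33 FPKM at day 0. Pknox1 was at 5.49 and 5.86 FPKM at day 3, against 8.70 and 9.25 FPKM at day 0. Their FPKM ratio, Pknox2 over Pknox1, was 0.323 and 0.143 in day 0 libraries, 1.37 and 1.20 in day 1 libraries, 2.95 and 2.80 in day 2 libraries, and 4.94 and 4.34 in day 3 libraries. In the sorted libraries it was 3.28, 3.38 and 3.66. The order of the 2 genes was therefore turned in every library after day 0, and the ratio at day 3 was above that of every other library.

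Pbx2 was the most abundant of the 8 genes at day 0 by mean FPKM, with 21.8 and 11.2 FPKM, but its 2 libraries there lay on both sides of Pbx3 (15.6 and 14.8 FPKM). Pbx2 had 73.2 and 49.7 CPM at day 0, 131.8 and 198.0 CPM at day 1, 171.7 and 198.4 CPM at day 2, 164.6 and 158.6 CPM at day 3, and 137.6, 166.4 and 184.9 CPM in sorted libraries. Every later library was above both libraries of day 0, and the range of day 1 overlapped that of each later group. Pbx2 rose at day 1 relative to day 0 by 1.42 ± 0.24 on the log2 scale (adjusted p = 0.00415 in edgeR), a call lost on the log2(FPKM + 1) scale without a filter (adjusted p = 0.0787). At day 2 against day 1 its difference was 0.16 ± 0.23, which turned to -0.22 with the GC offset.

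Pbx3, the other abundant Pbx gene, had 46.1 and 40.7 CPM at day 0, 63.4 and 58.1 CPM at day 1, 93.4 and 88.7 CPM at day 2, 57.6 and 84.4 CPM at day 3, and 88.2, 82.3 and 72.9 CPM in sorted libraries. Its highest mean, 91.1 CPM, was at day 2, and the 2 libraries of day 3 stood far apart, 1 of them at the level of day 1. The steps of 0.48 ± 0.20 at day 1 against day 0 and 0.58 ± 0.20 at day 2 against day 1 were not called (adjusted p = 0.121 and 0.0712 in edgeR). Each was called by some alternatives, at day 1 on the log2(FPKM + 1) scale (0.0393) and on the log2(FPKM + 0.1) scale (0.0371). At day 2 it was called without the filter (0.0498), with the sorted libraries in the fit (0.0408), with the GC offset (0.00835), and without day 3 replicate 1 (0.0449) or replicate 2 (0.0472). The net change at day 3 against day 0 was 0.70 ± 0.20 (adjusted p = 0.015 in edgeR), and it was not called without day 0 replicate 2 (0.075) or day 3 replicate 2 (0.122).

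Pbx4 rested on the fewest counts of the 8 genes in every library, from 13 to 160. It had 1.26 and 0.552 CPM at day 0, from 37 and 13 counts, 1.47 and 1.82 CPM at day 1, 3.03 and 2.93 CPM at day 2, and 5.05 and 4.77 CPM at day 3. In the sorted libraries it had 3.91, 3.82 and 7.76 CPM, with the third library above all others. The libraries of days 0 to 3 did not overlap, and no single step was called, except that of day 2 against day 1 on the log2(FPKM + 1) scale (adjusted p = 0.037 in limma) and the log2(FPKM + 0.1) scale (0.0497). The net log2 change at day 3 against day 0 was 2.41 ± 0.41 (adjusted p = 0.00118 in edgeR), 3.13 without day 0 replicate 1, and 3.26 on the log2(FPKM + 0.1) scale.

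Taking the 8 genes by step, 4 were called higher at day 1 than at day 0 (Meis1, Meis2, Pbx2 and Pknox2) and 0 lower, against 12% and 8.91% of all genes tested, 20.9% in either direction. The calls of Meis1, Meis2 and Pknox2 at this step were kept in all 10 other settings and in all 8 fits that left out 1 library. At day 2 against day 1, 3 were called higher (Meis1, Meis3 and Pknox2) and 0 lower, against 9.65% and 9.99% of all genes tested, 19.6% in either direction. The median log2 fold change was 1.18 over the 8 genes at day 1 against day 0, with 0.01 over all genes, and 0.71 at day 2 against day 1, with -0.003 over all genes.

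At day 3 against day 2, 0 of the 8 genes were called by edgeR in either direction, against 2.81% of all genes tested called higher and 1.26% lower, 4.07% together. At an unadjusted edgeR p under 0.05 the count was 2, Meis3 on the higher side and Pknox1 on the lower side. All genes were not counted at that threshold. DESeq2 called 1 of the 8, Meis3, and 1351 of 24342 genes over all, of which 65.1% were higher. Few genes of any kind were called at this step, and the number called higher over all genes was 10 without day 3 replicate 1, against 473 with it. The successive steps share libraries, since each day serves as the start of the next step.

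**Figure D2:**
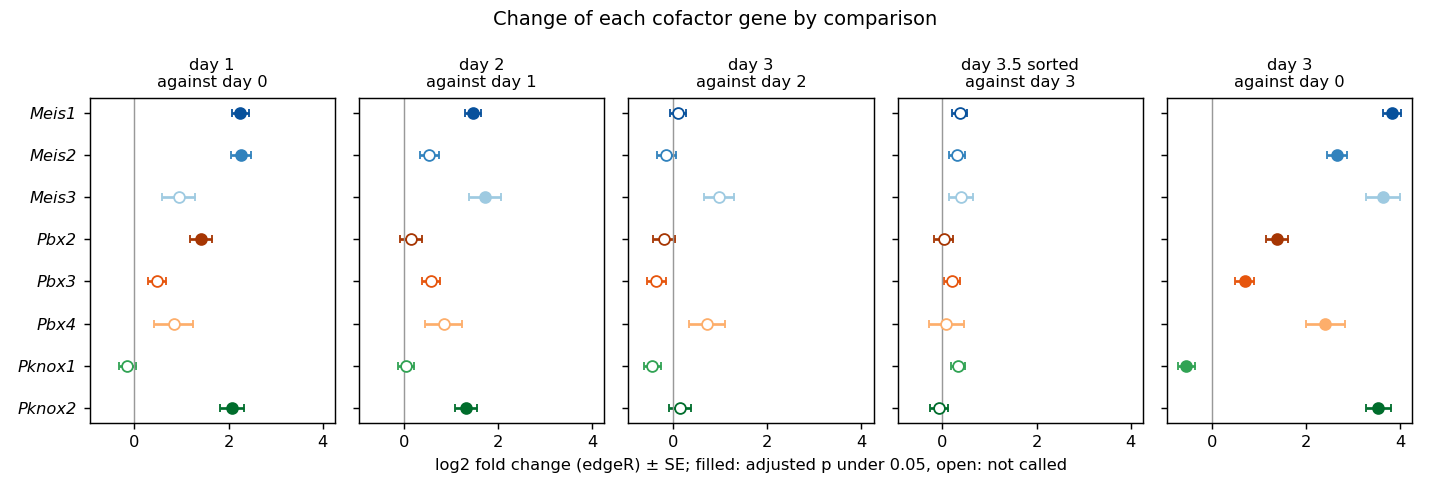
Log2 fold change of each cofactor gene in 5 comparisons, estimated by edgeR on counts, with bars of 1 SE; filled points had an adjusted p under 0.05. The calls fall at day 1 against day 0 (4 genes), day 2 against day 1 (3 genes) and day 3 against day 0 (8 genes), with 0 at day 3 against day 2 and 0 in sorted libraries against day 3.

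In the sorted libraries against day 3, 0 of the 8 genes were called in either direction by edgeR, against 0.435% of all 17030 genes tested called higher and 2.94% called lower, 3.37% together. DESeq2 called 0 of the 8, and 961 of 24770 genes over all. At an unadjusted edgeR p under 0.05 the count of the 8 was 2, a threshold at which all genes were not counted. The 2 were Meis1 with a log2 difference of 0.37 ± 0.16 and Pknox1 with 0.33 ± 0.15, whose adjusted p were 0.287 and 0.32 in edgeR. The median log2 difference was 0.26 over the 8 genes and -0.01 over all genes. Meis3 was at 54.2 to 64.0 CPM in sorted libraries, against 44.5 to 46.9 CPM at day 3, with no overlap, and was called with the GC offset (adjusted p = 0.0131). Pbx2, Pbx4 and Pknox2 differed by 0.03 ± 0.20, 0.08 ± 0.37 and -0.07 ± 0.19 on the log2 scale, each smaller than its SE, and each changed sign under at least 1 other setting. The extraembryonic endoderm markers moved with this comparison, at 34.3 to 39.9 CPM summed over 8 genes in sorted libraries against 143 to 183 CPM at day 3, and 6 of the 8 were called lower. Their part, and that of the lower depth of the sorted libraries, in the differences of the cofactor genes was not tested.

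Ordered by mean CPM, each of the 8 genes had its lowest group at day 0, except Pknox1, which had its lowest at day 3. Meis1, Meis2, Meis3 and Pbx4 had their highest mean in the sorted libraries, Pbx2 and Pbx3 at day 2, Pknox2 at day 3 and Pknox1 at day 0. Several neighbours in these orders did not differ beyond the larger SD of the pair: days 2 and 3 for Meis1, day 3 and day 2 and then the sorted libraries for Meis2, and all groups after day 0 for Pbx2. The same held for days 1 and 3 and the sorted libraries of Pbx3, for day 3 and the sorted libraries of Pbx4, for day 2 and the sorted libraries of Pknox2, and for the sorted libraries and days 1, 2 and 0 of Pknox1. All neighbours of Meis3 differed by more than that SD.

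Per length, the make-up of the cofactor RNA moved from Pbx to Meis. The 8 genes summed to 62.3 ± 14.8 FPKM at day 0, 185.7 ± 38.0 FPKM at day 1, 322.4 ± 44.3 FPKM at day 2 and 308.9 ± 8.56 FPKM at day 3 (SD, n = 2 each), and to 351.3 ± 26.6 FPKM in sorted libraries (SD, n = 3). Of that sum, the Meis genes took 30.3 ± 2.18% at day 0, 49.4 ± 0.948% at day 1, 57.5 ± 3.67% at day 2 and 60.1 ± 0.255% at day 3, and 64.8 ± 2.52% in sorted libraries. The 3 Pbx genes took 29.6 ± 0.339% at day 3, against 51.6 ± 1.07% at day 0, and the Prep genes 10.4 ± 0.589% at day 3, against 18.1 ± 3.26% at day 0. The Pbx share was lower although the Pbx sum in FPKM was higher at day 3, with 91.3 ± 3.58 FPKM at day 3 against 32.2 ± 8.32 FPKM at day 0. These shares cover 8 genes and not the whole family, and no test was made of them.

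**Figure D3:**
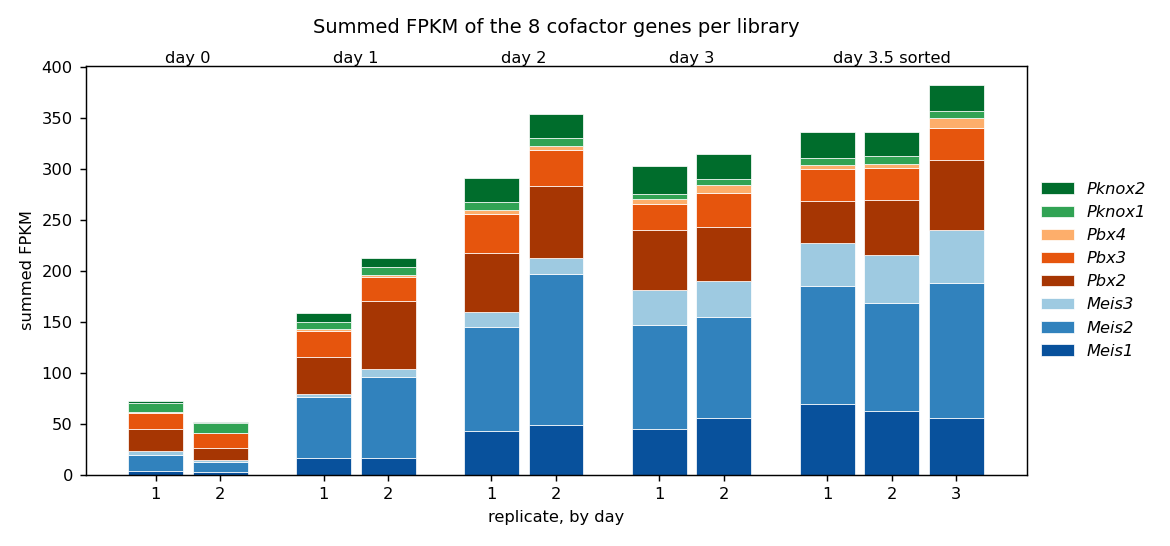
Summed FPKM of the 8 cofactor genes in each of the 11 libraries, stacked by gene, with libraries grouped by day. The stacks stand between 291.1 and 382.0 FPKM from day 2 on, against 51.8 and 72.8 FPKM at day 0, and the blue Meis part is the largest from day 1 on.

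From day 1 on, Meis2 had the highest mean FPKM of the 8 genes, with 59.6 and 79.4 FPKM at day 1 and 115.7, 105.8 and 131.9 FPKM in sorted libraries. Its day 1 libraries overlapped those of Pbx2 (35.9 and 66.6 FPKM), while at days 2 and 3 every Meis2 library was above every Pbx2 library. At day 3 Meis2 was above 91.8% of the 14863 genes with a mean of at least 1 FPKM, Pbx2 above 83.9%, Meis1 above 82.1% and Meis3 above 74.4%. Pknox1 and Pbx4 were above 27.2% and 28.4% of those genes. The Meis2 to Meis1 ratio in FPKM was 2.31 and 1.78 in day 3 libraries, against 4.27 and 3.75 in day 0 libraries, so that Meis1 came nearer to Meis2.

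The Hox genes encode partners of these proteins and were counted as lists. Of the 10 Hox genes of paralog groups 1 to 4 examined, which pattern the hindbrain, 10 were called higher at day 1 than at day 0 and 0 lower. The shares over all genes tested were 12% and 8.91%, and the median log2 fold change of the 10 was 3.41. Hoxb2 had 27.9 and 31.2 CPM at day 1, against 2.41 and 1.87 CPM at day 0, and Hoxb4 had 11.5 and 15.7 CPM at day 1, against 1.22 and 1.44 CPM at day 0. At day 2 against day 1, 3 of the 10 rose (Hoxa2, Hoxb3 and Hoxd3) and 1 fell (Hoxb1), against 9.65% and 9.99% of all genes tested. At day 3 against day 2, 0 rose and 1 fell (Hoxb1), against 2.81% and 1.26%. Hoxb1, a direct target of RA and of Pbx complexes in mouse hindbrain, had 50.5 and 52.9 CPM at day 1, 7.60 and 17.0 CPM at day 2, and 0.221 and 0.849 CPM at day 3. Its fall at day 3 was not called without day 3 replicate 1, nor that at day 2 without day 2 replicate 1.

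The 10 Hox genes summed to 18.05 and 21.3 CPM at day 0, 146.7 and 150.5 CPM at day 1, 143.9 and 188.3 CPM at day 2, and 169.0 and 170.1 CPM at day 3. The 8 cofactor genes summed to 177.8 and 223.8 CPM at day 0, 494.5 and 535.7 CPM at day 1, 763.0 and 841.8 CPM at day 2, and 717.4 and 820.6 CPM at day 3. The libraries of days 1, 2 and 3 were above those of day 0 in both sums. The range of the Hox sum at day 2 spanned those of days 1 and 3, and the cofactor sum at day 1 was below that of days 2 and 3; no test was made of the sums. Of the 16 tested Hox genes of paralog groups 5 to 10, 9 were called higher at day 1 than at day 0 and 0 lower, and 5 were called higher and 2 lower at day 3 than at day 0. The corresponding shares over all genes were 12% and 8.91% in the comparison of day 1, and 27.6% and 26.3% in that of day 3, so that 5 of 16 at day 3 is near the share over all genes. The retinoic acid response genes had 7 of 8 called higher and 1 lower at day 1 than at day 0, and their sum was 502.2 to 683.9 CPM at day 3, against 1122 to 1132 CPM at day 1. In sorted libraries against day 3, 0 Hox genes of either list were called by edgeR, against 0.435% of all genes tested called higher and 2.94% lower. At an unadjusted edgeR p under 0.05, 6 of paralog groups 1 to 4 and 4 of groups 5 to 10 were higher. Genes over all were not counted at that threshold, so these counts have no share beside them. DESeq2 called 2 of each list higher, and 961 of 24770 genes over all, of which 21.7% were higher.

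**Figure D4:**
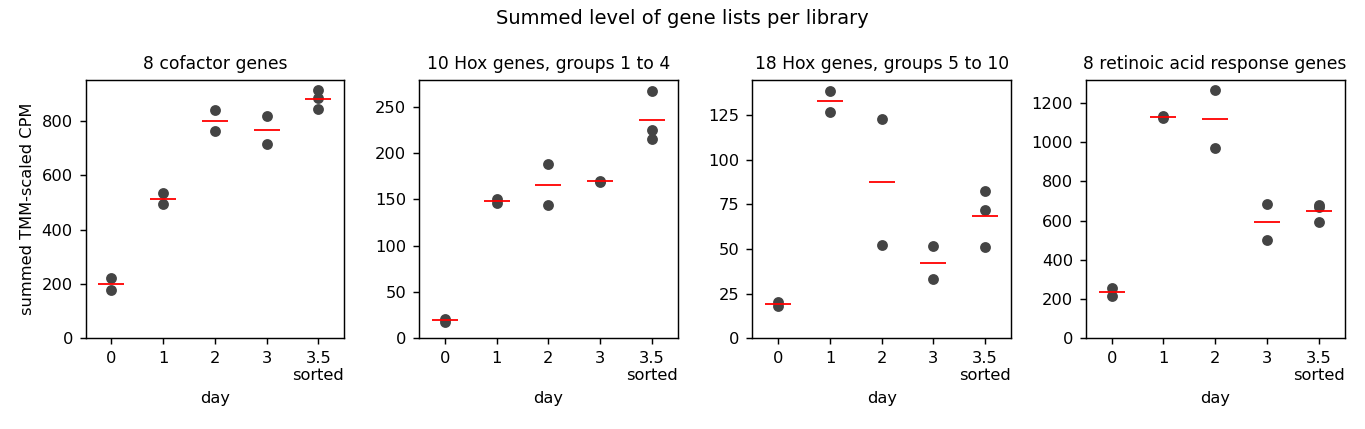
Summed TMM-scaled CPM (linear axes starting at 0, each panel with its own scale) of the 8 cofactor genes, 2 lists of Hox genes and the retinoic acid response genes; points are libraries and red dashes are group means. The sums of Hox genes of paralog groups 5 to 10 and of retinoic acid response genes are lower at day 3 than at day 1, those of paralog groups 1 to 4 lie between 143.9 and 266.9 CPM from day 1 on, and the cofactor sums stay between 717.4 and 916.0 CPM from day 2 on.

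The other TALE genes did not move as a block. Tgif1, a TALE repressor that limits TGF-beta and retinoid responses, had 88.3 and 69.9 CPM at day 1, against 210.1 and 241.6 CPM at day 0. It fell at day 1 by 1.52 ± 0.16 on the log2 scale (adjusted p = 0.000678 in edgeR). Irx2, an Iroquois gene of neural patterning, had 7.04 and 6.31 CPM at day 1, against 1.56 and 1.61 CPM at day 0, and rose by 2.06 ± 0.25 (adjusted p = 0.00113 in edgeR). Of the 8 tested TALE genes outside the cofactors, 4 were called higher at day 3 than at day 0 (Irx1, Irx2, Irx3 and Irx5) and 2 lower (Tgif1 and Mkx), with a median log2 fold change of 1.27 against 2.54 for the cofactors. Over all genes tested 27.6% were called higher and 26.3% lower, so that 2 of 8 lower is near that share. In the sorted libraries Tgif1 was at 39.0, 46.9 and 54.3 CPM, against 74.8 and 75.0 CPM at day 3 (log2 difference -0.67 ± 0.16, adjusted p = 0.0418 in edgeR), a call lost with RLE size factors and when day 2 replicate 1 was left out.

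Genes for proteins that bind or regulate the cofactors were counted as a list of 4. Myh10, a nonmuscle myosin whose heavy chain holds Pbx in the cytoplasm in cultured cells, had 1521 and 1380 CPM at day 2, against 331 and 371 CPM at day 1, and rose by 2.04 ± 0.20 (adjusted p = 0.000314 in edgeR). Pbxip1, which encodes a Pbx-interacting protein that blocks Pbx and Hox binding to DNA, had 59.5 and 46.8 CPM at day 2, against 16.1 and 22.0 CPM at day 1, and rose by 1.47 ± 0.35 (adjusted p = 0.0188 in edgeR). At day 3 against day 0, 2 of the 4 were called higher, Myh10 and Pbxip1, and 0 lower, in a comparison where 53.9% of all genes tested were called, 27.6% on the higher side. At day 2 against day 1, 3 of the 4 were called higher and 1 lower, against 9.65% and 9.99% of all genes tested. Fewer were called higher with any 1 library left out.

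Genes with known enhancers bound by Hox and TALE proteins were counted as a list of 7, of which 5 are Hox genes counted above. Of the 7, 6 were called higher at day 1 than at day 0 and 0 lower, against 12% and 8.91% of all genes tested. At day 3 against day 0, 4 were called higher and 1 lower, Hoxb1, against 27.6% higher and 26.3% lower over all genes tested. Egr2, which marks rhombomeres of the hindbrain, stayed at or below 2.33 CPM in all libraries.

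The genes with the course most like each cofactor gene were ranked by Pearson's r of log2 CPM over the 11 libraries, among genes with a mean of at least 5 CPM and day means that span at least 1 log2 unit. The libraries fall into groups by day, so that any gene with a steady climb scores high, and r is a description only. For Meis1 the closest were Tox3 (r = 0.997), Clstn2 and Sox6, with 392 of 4986 genes at r of 0.95 or more. For Meis2 they were Spsb4 (r = 0.991), Pde10a and Ncoa2, and for Meis3 Dpysl4 (r = 0.998), Btbd17 and Celsr2. For Pknox2 they were Clstn2 (r = 0.992), Smarca2 and Tmem164, so that Clstn2 was near both Meis1 and Pknox2. Pbx2 was most like Fam64a (r = 0.981), Aacs and Srcin1, Pbx3 most like Sp8 (r = 0.98), Suv39h1 and Aldh1a1, and Pbx4 most like Tmub2 (r = 0.982), Rnf215 and Rnf157. Only 5 genes reached r of 0.95 with Pbx3. The day means of Pknox1 spanned 0.53 log2 units, under the limit, so none was ranked. Among the cofactors themselves, Meis1 and Pknox2 had r = 0.98, Meis1 and Meis2 0.97, and Pknox1 and Meis1 -0.49.

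RefSeq promoter windows (build GRCm38.p6) were at hand for 5 of the 8 genes, Meis1, Meis2, Meis3, Pbx2 and Pbx4. The window was the 250 bases before the RefSeq start, and it was searched on both strands for 6 motifs. That start differs from the GENCODE one: the windows of Meis2, Meis3 and Pbx2 lie wholly inside the gene bounds given above, and GENCODE counts 170 of the 250 bases as exon of the gene in Meis2, 160 in Meis3, 133 in Pbx4, 16 in Meis1 and 0 in Pbx2. A match in Meis2, Meis3 or Pbx4 can therefore lie in transcribed sequence. The retinoic acid receptor core AGGTCA was held by 14.02% of 32851 promoters, its variant AGTTCA by 11.84% and its variant GGGTCA by 11.65%. The Meis site TGACAG was held by 15.86%, the Hox and Pbx site TGATNNAT by 7.68% and the CCAAT box by 33.85%. None of these motifs contains another. A CCAAT box was found in Meis1, Meis2 and Pbx4, an AGTTCA on the other strand in Meis3 from base -22 to base -17, and none of the 6 in Pbx2. The Meis1 window is shown, without its 16 exonic bases, because Meis1 had the largest net change of the 8 genes in the edgeR fit on all libraries of days 0 to 3. It is chr11:19018986-19019219 on the minus strand, 234 bases, with the CCAAT box at bases -54 to -50 in capitals.
Meis1 promoter: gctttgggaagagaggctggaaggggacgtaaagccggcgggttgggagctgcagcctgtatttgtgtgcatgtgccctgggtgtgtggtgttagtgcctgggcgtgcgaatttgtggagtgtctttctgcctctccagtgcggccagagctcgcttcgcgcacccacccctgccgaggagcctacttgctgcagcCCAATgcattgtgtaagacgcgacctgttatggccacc
A match is a run of letters and no evidence of binding, and enhancers outside these windows were not searched.

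Replicates of a day differed from each other in step with the GC content of the transcripts. Over 15593 genes, the log2 difference of replicate 1 minus replicate 2 had a Spearman correlation with GC content of 0.574 at day 0, -0.673 at day 1, -0.336 at day 2 and 0.326 at day 3, given as a description across genes. Among the cofactor genes, Meis3 (59.4% GC) differed by 0.76 between the replicates of day 0 and by -0.95 between those of day 1, Pbx4 (57.2%) by 1.08 and -0.29, and Pbx2 (55.6%) by 0.56 and -0.59. Some other values did not follow the trend. Meis2 (43.8%) differed by 0.53 at day 0, near the value of Pbx2, Pknox2 (52.9%) by 0.84 at day 0 but 0.17 at day 1, and Pbx4 by 0.05 at day 2. At day 0 Meis1 (42.4%) differed by 0.08 and Pbx3 (38.8%) by 0.18, while the fitted GC offsets of both genes were lower in replicate 1 there. The differences of Meis1 and Pbx3 had the sign of the offsets at day 1 (0.09 and 0.13) and at day 3 (-0.40 and -0.55). The part of this trend in the changes between days was not tested beyond the fit with the GC offset.

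**Figure D5:**
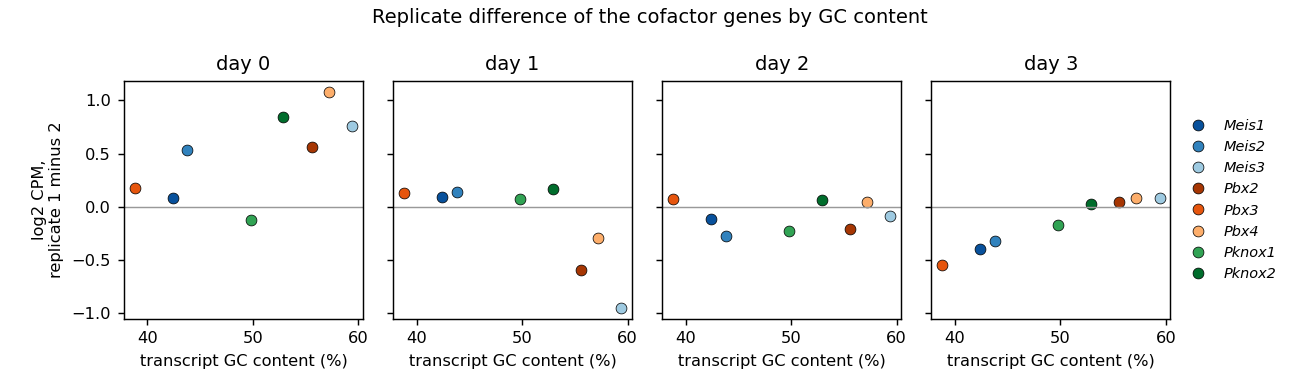
Difference between replicates 1 and 2 (log2 CPM, vertical axis) of each cofactor gene against its transcript GC content (percent, horizontal axis), at days 0 to 3. Meis3, Pbx2 and Pbx4, at the right of each panel, lie above 0 at day 0 and below 0 at day 1.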

How the data were processed

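Expected counts, FPKM and log2 (voom) values for 11 libraries were deposited by the authors. The submitters' processing notes list TopHat2 2.0.4, HTSeq 0.6.1, Cufflinks 2.1.1, bcl2fastq 1.8.3, CASAVA and limma without roles, and name GRCm38 (mm10) as the build. Among the deposited counts, 38093 genes hold only whole numbers and 104 do not, none of them a cofactor gene. They were handled like estimated counts and rounded. The annotation and the origin of the fractions are not given.

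Counts were tested with edgeR 4.0.16 (R 4.3.3) by the quasi-likelihood test with TMM scaling and filterByExpr at a minimum count of 10, on the 8 libraries of days 0 to 3 (16811 genes) or, for the sorted libraries, all 11 (17030 genes). P-values were adjusted by Benjamini-Hochberg over all genes tested, with a threshold of 0.05. Alternatives used DESeq2 1.42.0, limma 3.58.1 on the authors' deposited FPKM and log2 values, RLE scaling, no filter, a replicate block, fits on more or fewer libraries, each library left out, and, chosen after seeing the data, an offset per library for GC content. Library depths bound counting error only. Sets of genes are described by counts and medians. Counts at an unadjusted p under 0.05 were made for the lists only, so no share over all genes stands beside them.

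All 8 cofactor genes are named, with up to 4 called genes of each list per comparison by smallest adjusted p and the 3 genes most like each cofactor gene. Egr2, Prom1, Msgn1, Sox10, Meox1, Ets1, Stmn2 and the less significant called members named to complete a count were named after their values were seen. The members and the lists were chosen with earlier results of these data known. A gene was left out of each of 2 lists after the tests were run, not for its values, and is not reported here. Tested on simulated counts, the fit for day 1 against day 0 (15902 genes) found 70.71% of changes of 4-fold size and 5.05% of those of 2-fold size, with 3 calls of unchanged genes. The fit for sorted against day 3 (15641 genes) found 83% of the larger and 18% of the smaller, with 5 such calls. The simulated counts had an assumed spread and no trend with GC content, and 99 or 100 tested genes changed at each size. These rates need not hold for the real libraries.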

Additional observations from a re-analysis of the deposited data

How the results depend on the processing

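Across the comparisons of the 8 genes, 366 fold changes of single genes under other settings kept their direction and side of the threshold, 17 gained a call, 5 lost one and 12 changed sign; with 1 library left out these were 324, 3, 7 and 10. Cofactor genes called higher at day 2 against day 1 numbered 5 without the filter, 5 with the GC offset and 2 on the log2(FPKM + 1) scale without a filter, against 3. Calls over all genes, in either direction, also differed by setting. At this step they numbered 4353 of 24342 genes without the filter and 4718 of 15537 with the GC offset. On that FPKM scale they numbered 2157 of 26718, against 3301 of 16811 in the main fit. At day 3 against day 2 the cofactor genes called higher numbered 1 without the filter, 1 by DESeq2 and 1 with the GC offset, against 0. All genes called there numbered 1593 of 24342, 1351 of 24342 and 2456 of 15537 in that order, against 684 of 16811. In sorted libraries against day 3, 1 cofactor gene was called higher with the GC offset, against 0. All genes called there numbered 1204 of 15780 with the offset, against 574 of 17030. Cofactor genes called lower at day 3 against day 0 numbered 0 without the filter, 0 with the replicate block and 0 on the deposited voom values, against 1, and 0 to 1 with a library left out. All genes called there numbered 9453 of 24342 without the filter and 8307 of 16811 with the block. On voom values they numbered 9124 of 16811, against 9064 of 16811 in the main fit. The causes were not tested.

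The sign of an uncalled difference turned for Pbx2 at day 2 against day 1 with the GC offset (-0.22). In sorted libraries against day 3 it turned for Pbx2 under the replicate block (-0.0800), log2(FPKM + 1) with and without a filter (-0.054 in both), log2(FPKM + 0.1) (-0.055) and voom values (-0.033). Under the same 5 settings Pbx4 stood at -0.33, -0.136, -0.136, -0.175 and -0.0395, and Pknox2 turned with the GC offset (0.0498). With 1 library left out, Pbx2 ran from -0.097 to 0.481 and Pknox1 from -0.066 to 0.174 at day 2 against day 1. Meis1 ran from -0.103 to 0.295 and Meis2 from -0.317 to 0.00202 at day 3 against day 2. In sorted libraries against day 3, Pbx2 ran from -0.074 to 0.132, Pbx3 from -0.046 to 0.507 and Pbx4 from -0.33 to 0.259.

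Correlations of same-numbered deviations between days ran from -0.461 to 0.186. Replicates also differed along GC content, in a direction that changed between days. These correlations therefore cannot show whether replicate numbers pair the samples. With the replicate block, genes called at day 1 against day 0 numbered 2474 of all tested, against 3512 without it. RLE scaling alone left the share of calls that were higher at day 1 than at day 0 at 56.2%, against 57.3%. It was 71.3% on log2(FPKM + 0.1) and 71.8% on voom values, which change the test as well as the scaling. With the GC offset 32.3% of calls in sorted libraries against day 3 were higher, against 12.9%, and 57.4% at day 3 against day 2, against 69.2%. On the voom values the median of all genes shifted by 0.151 at day 1 against day 0 and by 0.175 at day 3 against day 0. Over all genes, 473 were called higher and 211 lower at day 3 against day 2, and 10 and 3 without day 3 replicate 1. Pairs of libraries per day and low counts of Pbx4 limit what small changes could be seen.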
